A study of Mus musculus with 3 samples.

Results

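The nuclear-encoded genes of the respiratory chain were followed in small-intestinal crypt cells of 3 single-cell RNA-seq libraries. The members were taken by symbol: every gene beginning with Nduf and a subunit letter (a, b, c, s or v), with Uqcr, with Cox and a digit from 4 to 8, or with Atp5. This gave 88 of the 28692 genes in the tables. Of these, 45 carry complex I names, 8 complex III names, 18 complex IV names and 17 complex V names. The name rule also took in genes that are not subunits: the 7 complex I assembly factors (Ndufaf1 to Ndufaf7), the distant relatives Atp5s and Atp5sl, and Cox7a2l, known for its part in joining complexes III and IV. Ndufa4 has a complex I name, but its protein is known as a subunit of complex IV.

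Unique molecular identifiers (UMIs) were counted with the 10x Genomics Chromium 3' version 3 chemistry in crypt cells released with 3x TripLE for 1 h. All mice were C57BL/6 adults of 2 to 3 months and carried Olfm4-IRES-eGFPCreERT2, a Cre recombinase driven in Olfm4-expressing cells, which are mainly stem cells and their near progeny at the crypt base. The control was heterozygous for the floxed gene (CDC42+/flox), the KO was CDC42flox/flox, and the rescue was CDC42flox/flox with Yapflox/flox and Tazflox/+. The design asks how expression differs when both Cdc42 alleles can be recombined and when Yap1 and 1 allele of Wwtr1 (TAZ) can be recombined as well. There was 1 library per genotype, so no test between genotypes was possible. Intervals are exact 95% intervals for counting error, and they hold no spread between animals. Whether a library came from 1 animal or several, and whether and when the Cre was induced, is not given in the labels.

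The respiratory chain passes electrons from NADH (complex I) and succinate (complex II) through complex III to complex IV, which reduces oxygen. Complexes I, III and IV pump protons across the inner mitochondrial membrane, and complex V, the ATP synthase, uses that gradient to make ATP. Most subunits are encoded in the nucleus and a small catalytic set in mitochondrial DNA, so both genomes supply each of these complexes except complex II. In the intestine, absorptive enterocytes are rich in mitochondria and use ATP for nutrient uptake and transport.

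The RefSeq promoter table (assembly GRCm38.p6, windows of 250 bases before to 50 after a gene's start) held 70 of the 88 members. The letters GCGCA, any base and GCGC, a form of the site of nuclear respiratory factor 1 (NRF1), stood on either strand in the windows of 17 of these 70 members (24.3%), and in 5.19% of 27025 genes. AAGATGGC, the core of the YY1 site, stood in 9 members (12.9%) and in 3.19% of all genes. CCGGAAG, an ETS-type site, stood in 15 members (21.4%) and in 9.93% of all genes. Together 36 members had at least 1 of these 3 motifs. The ETS letters end as the YY1 letters begin, so matches to both can overlap. The 250 upstream bases of 4 members are shown because the results below turn on them: Cox7a1 and its ubiquitous paralog Cox7a2, and 2 complex I genes that lay at opposite ends of the KO and control comparison. Capitals mark the NRF1 letters, and the Cox7a1 and Cox7a2 windows held none of the 3 motifs. The windows lie at chr7:30183921-30184170 (plus strand) for Cox7a1, chr9:79759854-79760103 (minus strand) for Cox7a2, chr17:56717512-56717761 (plus strand) for Ndufa11 and chr4:24897833-24898082 (plus strand) for Ndufaf4.
Cox7a1: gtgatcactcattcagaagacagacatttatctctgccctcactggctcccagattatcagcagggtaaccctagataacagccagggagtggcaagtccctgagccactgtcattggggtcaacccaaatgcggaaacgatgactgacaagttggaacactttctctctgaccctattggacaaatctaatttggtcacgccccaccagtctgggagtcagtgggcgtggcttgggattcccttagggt
Cox7a2: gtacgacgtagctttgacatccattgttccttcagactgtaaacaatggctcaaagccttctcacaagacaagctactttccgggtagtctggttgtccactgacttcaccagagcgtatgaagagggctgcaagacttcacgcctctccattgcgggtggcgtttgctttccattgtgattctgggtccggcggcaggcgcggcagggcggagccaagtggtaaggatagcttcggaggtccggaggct
Ndufa11: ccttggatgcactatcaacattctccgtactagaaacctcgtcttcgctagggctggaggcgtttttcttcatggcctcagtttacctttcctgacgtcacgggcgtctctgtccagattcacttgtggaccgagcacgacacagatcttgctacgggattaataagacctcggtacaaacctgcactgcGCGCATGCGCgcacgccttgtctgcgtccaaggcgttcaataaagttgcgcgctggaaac
Ndufaf4: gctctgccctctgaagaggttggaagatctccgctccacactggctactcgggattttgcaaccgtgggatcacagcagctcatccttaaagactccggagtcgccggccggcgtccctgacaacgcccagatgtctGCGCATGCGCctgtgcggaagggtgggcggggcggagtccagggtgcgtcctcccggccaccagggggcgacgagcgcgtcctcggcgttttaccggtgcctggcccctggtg
GC content was 51.2%, 54.8%, 53.2% and 66.4% in that order. A match of letters is a description of the sequence. No binding was measured.

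The libraries held 58433966 (control), 85525811 (KO) and 64355665 (rescue) UMIs over 6152, 4786 and 3449 barcodes. Cells were kept that had 500 or more genes, 1000 or more UMIs and no more than 20% of UMIs from mitochondrial DNA. Epithelial cells had at least 2 Epcam UMIs and no Ptprc UMI, which left 515, 1504 and 726 cells with a median of 33401, 41467 and 46115 UMIs. Libraries shared 11 (KO and control), 6 (rescue and KO) and 3 (rescue and control) barcode sequences among all deposited barcodes. Cdc42 itself stood at 249, 384 and 383 CPM (UMIs per 1000000 UMIs) in the epithelial cells, so it was not lower in the library labelled KO. Yap1 was at 26.4, 24.6 and 20.4 CPM and Wwtr1 at 7.33, 13.3 and 2.86 CPM. Which exons are floxed is not given, and 3' counts from outside a deleted exon would check nothing. RNA of Paneth cells, which secrete defensins at the crypt base, set the libraries apart: the summed CPM of 6 Paneth markers was 81417 for the control, 887 for the KO and 14232 for the rescue. Summed immune markers reached at most 57.5 CPM and stromal markers at most 16.9 CPM in the epithelial cells.

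Epithelial cells were divided by single genes. Lgr5-positive cells (at least 1 UMI of the stem cell receptor gene) numbered 157 for the control, 17 for the KO and 70 for the rescue. Mki67 cells (at least 2 UMIs of the proliferation gene) numbered 77, 213 and 247. Fabp1-high cells (at least 50 UMIs per 10000 of the enterocyte fatty acid binding protein) numbered 125, 806 and 208. Muc2-high cells (at least 5 UMIs per 10000 of the goblet cell mucin) numbered 93, 226 and 50. The classes overlapped in 62, 70 and 57 cells, and 132, 313 and 212 cells belonged to none. Stem cell markers followed the division: 11 of them, Lgr5 included, summed to 1896, 1516 and 1363 CPM in the Lgr5-positive cells and to 66.9, 17.7 and 39.96 CPM in the Fabp1-high cells. The Muc2-high gate was mixed. In the control 19.3% of the UMIs of its cells came from Defa24, a Paneth cell defensin gene, as did 0.534% for the KO and 4.72% for the rescue. Enterocyte markers summed to 1471, 13662 and 3846 CPM in it, and 2, 28 and 1 of its cells were also Fabp1-high. This class is therefore called by its gate alone.

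Together the members took 3.65% of epithelial UMIs for the control, 4.18% for the KO and 5.26% for the rescue. In Fabp1-high cells the summed level was 60772 CPM for the control (60568 to 60977), 45814 for the KO (45746 to 45882) and 59896 for the rescue (59727 to 60064). The KO thus stood 1.33-fold below the control in these enterocyte-type cells, and the rescue stood at 0.986 times the control. In Lgr5-positive cells the sum was 25331, 35274 and 35826 CPM, lowest in the control and close together in the KO and rescue. Of these cells 33, 10 and 46 were also Mki67 cells. In Lgr5-positive cells of exactly 1 class (104, 7 and 22 cells) the sum was 29334, 31863 and 24005 CPM, lowest in the rescue. Mki67 cells had 36078, 41877 and 49642 CPM. Muc2-high cells had the widest spread, with 11490, 22426 and 31955 CPM. Barcodes with Ptprc and without Epcam, an immune reference of 366, 125 and 472 cells, had 16325, 17946 and 20230 CPM, below every epithelial class except the Muc2-high cells of the control.

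**Figure D1:**
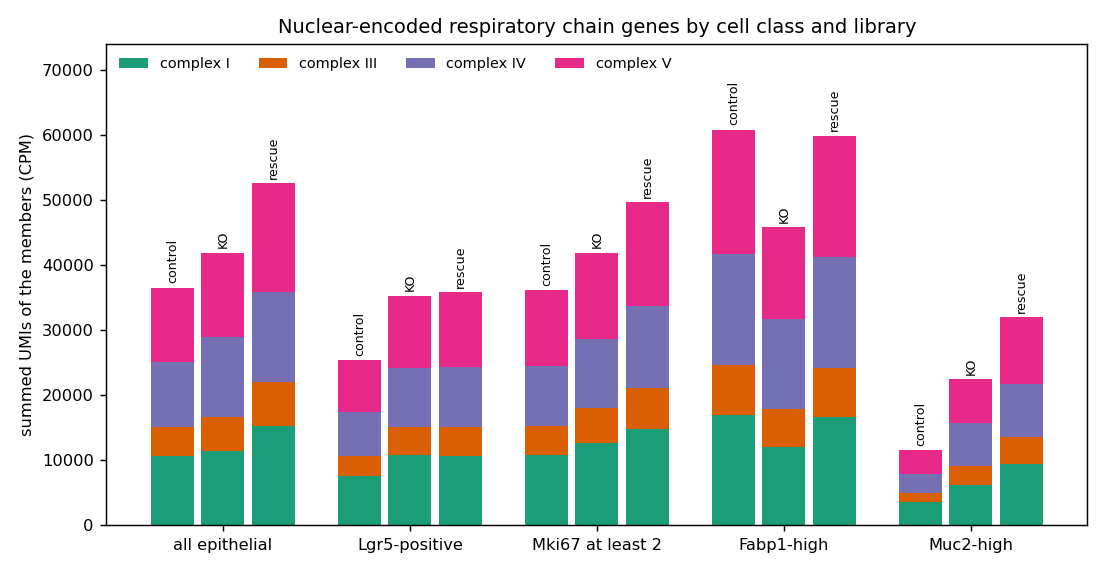
Summed CPM of the members (y axis) in all epithelial cells and in each class, as 1 stacked bar per library with the parts of complexes I, III, IV and V. In Fabp1-high cells the KO bar is lowest, and in the other classes the control bar is lowest.

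Each complex kept a similar share of the member UMIs. In all epithelial cells complex I genes gave 29.0%, 27.1% and 29.1% of them (control, KO, rescue), complex III genes 12.4%, 12.6% and 12.9%, complex IV genes 27.1%, 29.3% and 26.4%, and complex V genes 31.6%, 31.0% and 31.7%. Per cell, the members took a median of 6.13%, 4.54% and 6.07% of UMIs in Fabp1-high cells and 3.06%, 3.36% and 4.16% in Lgr5-positive cells. Medians per cell weigh each cell equally, and the KO was lowest in Fabp1-high cells by this measure too. Across the 515 epithelial cells of the control the shares of complexes I and III had a Spearman rho of 0.93, those of I and IV 0.95 and those of I and V 0.96. The same pairs had 0.84, 0.67 and 0.88 in the KO and 0.91, 0.84 and 0.91 in the rescue. Within Fabp1-high cells the rho of I and IV was 0.62, 0.55 and 0.76 (control, KO, rescue). These points share a cell's depth and class, so the values describe cells and are no test.

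The most abundant members differed by complex. A 3' tag is counted once per molecule and does not grow with transcript length, so levels are set side by side between genes. Whether the genes are captured and mapped equally well was not checked. For complex IV, Cox4i1 (the ubiquitous subunit 4 isoform) had 1465, 1708 and 1809 CPM, Cox8a 1423, 1654 and 2016 CPM, and Cox5a 964, 1831 and 1417 CPM in the epithelial cells of the control, KO and rescue. For complex V, Atp5b (the catalytic beta subunit) had 1235, 1314 and 1447 CPM, Atp5a1 (the alpha subunit) 964, 964 and 1260 CPM, and Atp5g1 (one of the genes for the proton-carrying c subunit) 909, 970 and 1553 CPM. For complex III, Uqcrh had 861, 947 and 1276 CPM, Uqcrq 740, 885 and 1100 CPM, and Uqcr11 670, 670 and 1075 CPM. Among complex I names, Ndufa4 led with 981, 815 and 1540 CPM, before Ndufb9 with 609, 848 and 920 CPM and Ndufab1, the mitochondrial acyl carrier protein, with 463, 412 and 692 CPM. Among these 12 genes Ndufa4 and Ndufab1 had lower KO than control levels, and Atp5a1 and Uqcr11 were nearly equal in the 2 libraries.

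The first comparison asks how the chain differs between stem-type and enterocyte-type cells of the same library. The summed level was 2.40-fold higher in Fabp1-high than in Lgr5-positive cells of the control (2.39 to 2.41), 1.299-fold in the KO (1.279 to 1.319) and 1.67-fold in the rescue (1.66 to 1.68). Mki67 cells lay between, at 1.42, 1.19 and 1.39 times the Lgr5-positive level. Muc2-high cells lay below it, at 0.454, 0.636 and 0.892 times. By complex, the control ratio of Fabp1-high over Lgr5-positive cells was 2.23 for I, 2.53 for III, 2.56 for IV and 2.37 for V. The KO ratios were 1.12, 1.33, 1.54 and 1.27 and the rescue ratios 1.56, 1.70, 1.85 and 1.62, so complex IV had the steepest and complex I the shallowest difference in each of the 3 libraries. Paneth markers summed to 118321, 153 and 72609 CPM in the Lgr5-positive cells and to 7720, 260 and 128 CPM in the Fabp1-high cells. Without the 45, 10 and 11 cells that had at least 100 Lyz1 UMIs per 10000, a setting added after the data were seen, the control ratio was 1.85 and the rescue ratio 1.41. The rescue ratio stood above that of the control in cells of exactly 1 class, at 2.52 against 2.12, and with a mitochondrial limit of 10%, at 2.55 against 1.98. In cells of exactly 1 class the rescue ratios of Mki67 and Muc2-high over Lgr5-positive cells were 2.18 and 1.33.

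**Figure D2:**
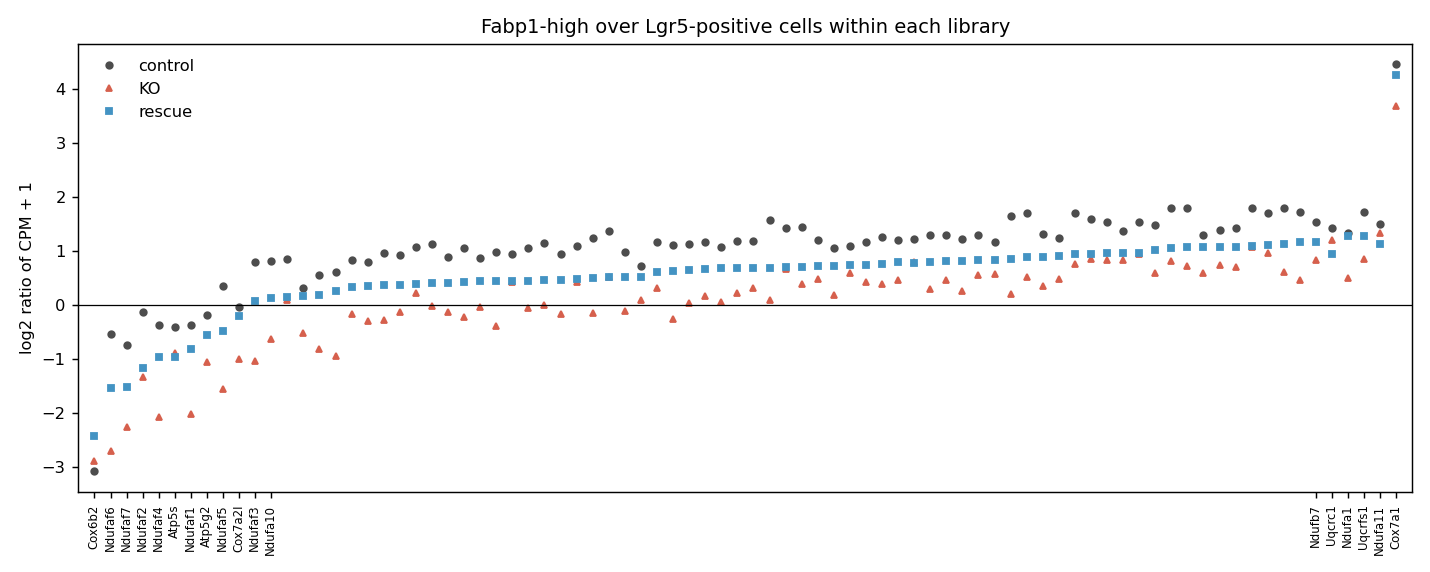
Log2 ratio of CPM + 1 in Fabp1-high over Lgr5-positive cells (y axis) for each tested member (x axis, ordered by the median over libraries, with names at both ends), with 1 point per library. Most control points lie above those of the KO, and the left end holds Cox6b2 and assembly factors while Cox7a1 stands alone at the right.

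Counted by member, with at least 20 UMIs in 1 of the 2 classes, 70 of 82 members were at least 1.5-fold higher in Fabp1-high cells of the control, against 26.3% of all genes, and 2 were at least 1.5-fold lower, against 41.1%. In the KO 22 of 82 were higher, against 29.2% of all genes, which is near the background, and 14 were lower, against 48.3%. In the rescue 47 of 82 were higher, against 25.2%, and 7 lower, against 44.8%. The median log2 ratio of the members was 1.17, 0.28 and 0.69, beside -0.25, -0.46 and -0.36 for all genes. The Fabp1-high cells of the 3 libraries thus differed from Lgr5-positive cells in the same direction for the median member. The Lgr5-positive value of the KO rests on 17 cells.

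Cox7a1 had the largest difference between the classes. It encodes the heart and skeletal muscle isoform of subunit 7a of complex IV. It stood at 28.1 CPM in Lgr5-positive and 640 CPM in Fabp1-high cells of the control, at 6.63 and 96.8 CPM in the KO and at 20.7 and 417 CPM in the rescue. The ratios were 22.8 (19.7 to 26.4), 14.6 (4.99 to 70.8, on 3 UMIs in the Lgr5-positive cells) and 20.1 (16.7 to 24.5). By the median over the libraries Ndufa11, a complex I membrane subunit, came next, at 2.86, 2.54 and 2.19 times, and the order of the following genes differed between libraries. Uqcrfs1, the Rieske iron-sulfur protein of complex III, was at 3.31, 1.81 and 2.43 times. Uqcrc1, a core protein of complex III, was at 2.68, 2.31 and 1.93 times and Ndufa1, a small complex I membrane subunit, at 2.54, 1.42 and 2.44 times.

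The lowest ratios included several complex I assembly factors. These proteins help to build the complex and are not part of the finished enzyme. Ndufaf6 stood at 20.02, 39.8 and 31.8 CPM in Lgr5-positive cells and at 13.5, 5.22 and 10.4 CPM in Fabp1-high cells, a ratio of 0.672, 0.131 and 0.326. Ndufaf7 had ratios of 0.585, 0.185 and 0.323, Ndufaf4 of 0.774, 0.229 and 0.503, and Ndufaf2 of 0.910, 0.384 and 0.438. The factors were not alike in the control, where Ndufaf3 stood 1.75-fold and Ndufaf5 1.301-fold higher in Fabp1-high cells. Ndufaf3 had ratios of 0.477 and 1.06 in the KO and rescue. All 7 assembly factors were among the members at least 1.5-fold lower in Fabp1-high cells of the KO. Cox6b2, known as the testis isoform of subunit 6b, had its Fabp1-high level at 0.0341, 0.0700 and 0.0808 times that of Lgr5-positive cells, from 10.51, 13.3 and 7.63 CPM to 0.359, 0.928 and 0.617 CPM. Only 2, 35 and 5 Cox6b2 UMIs were counted in the Fabp1-high cells.

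The second comparison sets the KO against the control. Across all epithelial cells the summed level stood 1.145-fold higher in the KO (1.142 to 1.148), and by complex 1.07-fold for I, 1.17-fold for III, 1.24-fold for IV and 1.13-fold for V. Of 83 members tested 5 were at least 1.5-fold higher in the KO, against 18.2% of all genes, and 7 were at least 1.5-fold lower, against 39.3% of all genes. The median log2 ratio was 0.09 for the members and -0.28 for all genes tested. With ratios centred on that median 22 members were higher and 3 lower, and with mitochondrial and Paneth-type UMIs left out of the total 3 were higher and 10 lower. Shares of all genes were not computed under alternative settings, so these counts and later ones of that kind have no background beside them. The pooled direction depended on which cells were pooled. Without the Lyz1-high cells the pooled ratio was 0.947 (0.886 for complex I), and with a mitochondrial limit of 10% it was 2.38. The pooled cells also differed in makeup, since 806 of 1504 KO cells and 125 of 515 control cells were Fabp1-high.

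Within the classes the order of the libraries differed. In Fabp1-high cells the KO stood at 0.754 times the control (0.751 to 0.757), and by complex at 0.710 for I, 0.754 for III, 0.812 for IV and 0.741 for V. In these cells 36 of 82 members were at least 1.5-fold lower in the KO, against 30.7% of all genes, and 1 was higher, against 19.0%. The median log2 ratio was -0.48 for the members and -0.15 for all genes, and 21 members were lower after centring on the latter. In Lgr5-positive cells the KO stood 1.39-fold higher (1.37 to 1.42; 2.15 with the mitochondrial limit of 10%). There 30 of 82 members were higher, against 34.5%, which is near the background, and 1 was lower, against 17.2%. In Mki67 cells the KO stood 1.16-fold higher (1.15 to 1.17), with 6 of 82 higher, against 21.0%, and 3 lower, against 15.9%. That direction reversed in Mki67 cells of exactly 1 class, with 46651 CPM in 36 control cells and 41346 CPM in 170 KO cells. In Muc2-high cells the KO stood 1.95-fold higher (1.93 to 1.97), with 58 of 80 higher, against 45.1%, and 2 lower, against 13.3%. Median log2 ratios of members and of all genes were 0.45 and 0.31 in Lgr5-positive cells and 0.16 and 0.08 in Mki67 cells. In Muc2-high cells they were 0.81 and 0.43. Without the Lyz1-high cells the ratios of summed levels were 0.739 in Fabp1-high, 1.05 in Lgr5-positive, 0.990 in Mki67 and 1.05 in Muc2-high cells. The difference in Fabp1-high cells was thus as large without them, and the ratios in the other classes lay close to 1.

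**Figure D3:**
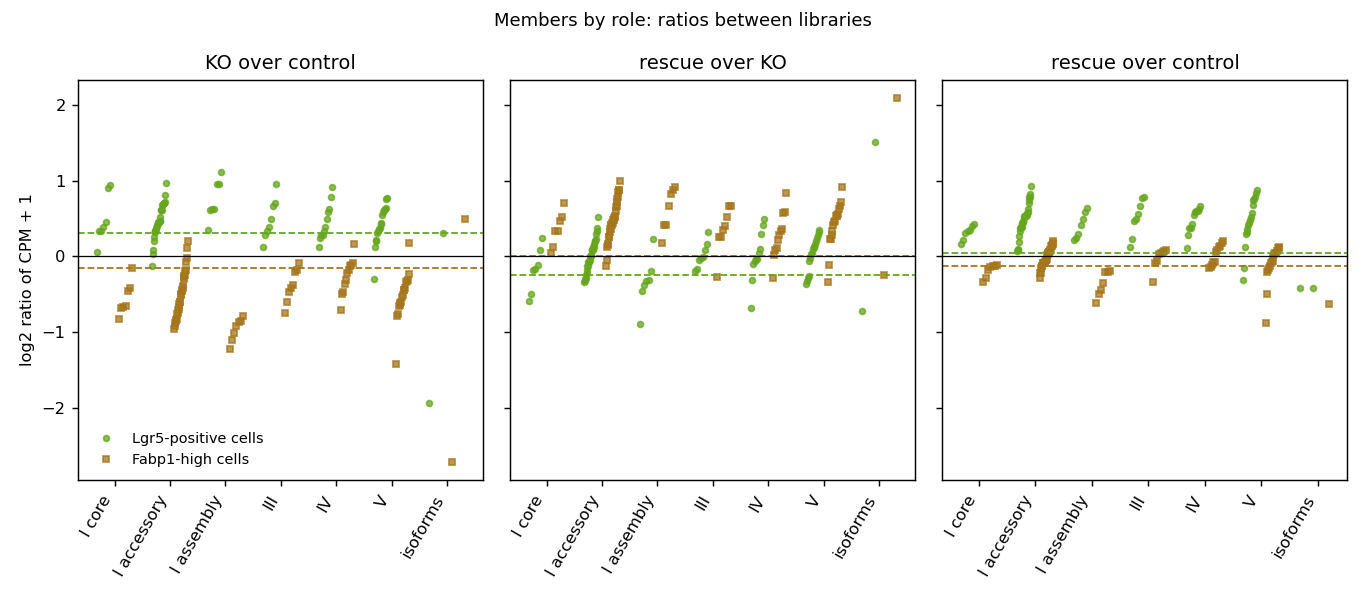
Log2 ratio of CPM + 1 between libraries (y axis) for each member, grouped by role on the x axis, in Lgr5-positive cells (circles) and Fabp1-high cells (squares), with dashed lines at the median of all genes tested in each class. For the KO over the control most squares lie below 0 and most circles above it, and for the rescue over the KO most squares lie above 0.

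The direction in Fabp1-high cells differed under the stricter mitochondrial limit. With a limit of 10% the KO over control ratio in these cells was 1.41, with 11 control, 408 KO and 41 rescue cells left, at 33227, 46871 and 55827 CPM. Below 5% the level was 75810 CPM in 7 control cells, 47189 in 22 KO cells and 55346 in 27 rescue cells. Between 5% and 10% it was 22358 CPM in 4 control cells, 46861 in 386 KO cells and 57937 in 14 rescue cells. The low control value under this limit thus rested on 4 cells. Within bins of mitochondrial share that held more control cells the order was as in the whole class. Between 10% and 15% the level was 64679 CPM in 49 control cells, 45067 in 298 KO cells and 63421 in 93 rescue cells. Between 15% and 20% it was 59059 CPM in 65 cells, 42277 in 100 and 55451 in 74. The share of UMIs from mitochondrial DNA was 15.1%, 10.3% and 14.6% in the Fabp1-high cells and moved with the member level across the libraries. Its part in the result was not tested.

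**Figure D4:**
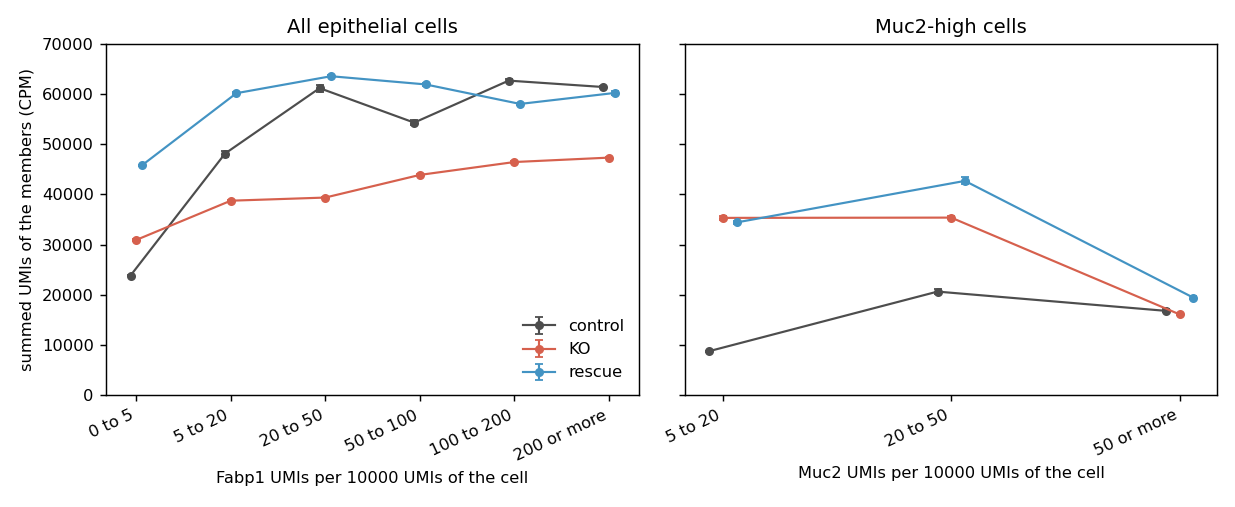
Summed member CPM (y axis) in all epithelial cells binned by Fabp1 level (left) and in Muc2-high cells binned by Muc2 level (right), by library, with exact Poisson intervals. The KO lies below the control in every Fabp1 bin from 5 UMIs per 10000 upward, and the 3 libraries come close together in the highest Muc2 bin.

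The KO was also lowest at each level of Fabp1 within this class, while the order of control and rescue differed between levels. At 50 to 100 Fabp1 UMIs per 10000 the members summed to 54318, 43889 and 61939 CPM, at 100 to 200 to 62695, 46459 and 58045 CPM, and at 200 or more to 61418, 47338 and 60233 CPM. Only below 5 Fabp1 UMIs per 10000 did the KO stand above the control, at 30916 against 23816 CPM, with 45789 CPM in the rescue. Other enterocyte genes of the Fabp1-high cells differed between the libraries in both directions. Sis, which encodes sucrase-isomaltase, stood at 2260, 264 and 2237 CPM, and Anpep, an aminopeptidase gene, at 1471, 273 and 1921 CPM. Ada, an adenosine deaminase gene, stood at 10.1, 4299 and 676 CPM, and Alpi, the intestinal alkaline phosphatase gene, at 894, 3083 and 909 CPM. The class therefore holds cells with different enterocyte genes in the 3 libraries, and how much of the member difference goes with that was not tested.

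Genes with complex I names made up most of the lower members in Fabp1-high cells. Of 44 tested genes with these names 25 were at least 1.5-fold lower in the KO, against 30.7% of all genes, and 0 were higher, against 19.0%. The 25 include the 7 assembly factors and Ndufa4, so not all of them are complex I subunits. Among the core subunits, which carry the flavin and iron-sulfur centres, Ndufs1 stood at 117, 65.1 and 107 CPM in control, KO and rescue. Ndufv2 was at 388, 244 and 351 CPM and Ndufv1, the NADH-binding subunit, at 273, 174 and 241 CPM. Ndufs3 was at 252, 184 and 230 CPM, Ndufs8 at 231, 173 and 190 CPM and Ndufs7 at 356, 321 and 330 CPM. Each of these thus had their lowest value in the KO and their highest in the control. Across all epithelial cells the rescue had the highest level of each, at 82.2, 67.4 and 106 CPM for Ndufs1, 170, 183 and 233 CPM for Ndufs3 and 240, 318 and 334 CPM for Ndufs7. Ndufs8 had 167, 177 and 226 CPM there, Ndufv1 168, 165 and 203 CPM, and Ndufv2 257, 242 and 341 CPM.

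Accessory subunits of complex I surround the core and differed more among themselves. Ndufa4 (chr6:11900292-11907497, minus strand) had 1623, 861 and 1574 CPM in Fabp1-high cells, a KO over control ratio of 0.531 (0.518 to 0.543). Ndufa1 had 349, 179 and 356 CPM, a ratio of 0.513 (0.488 to 0.540), and Ndufb3 had 341, 185 and 335 CPM, a ratio of 0.543 (0.516 to 0.572). Ndufc2 had 300, 188 and 346 CPM, Ndufb11 433, 282 and 405 CPM and Ndufa7 388, 275 and 375 CPM. These 6 genes were named for being among the 10 with the lowest KO over control ratios in all epithelial cells, from 0.796 for Ndufa1 to 0.873 for Ndufb11. Ndufa11 (chr17:56717767-56722141, plus strand) went the other way. It stood at 240, 420 and 356 CPM in the epithelial cells, 1.75-fold higher in the KO than in the control (1.70 to 1.81), and at 418, 484 and 444 CPM in Fabp1-high cells, a ratio of 1.16. Ndufb6 had 176, 279 and 312 CPM in the epithelial cells (1.59-fold) and 292, 315 and 307 CPM in Fabp1-high cells. Ndufs4 was 1.46-fold and Ndufb8 1.41-fold higher in the KO epithelium, with ratios of 0.989 and 0.955 in Fabp1-high cells.

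All 7 assembly factors stood below the control in the KO epithelium, with a median log2 ratio of -0.55, and 3 of them (Ndufaf1, Ndufaf6 and Ndufaf7) were at least 1.5-fold lower, a share near the 39.3% of all genes. In Fabp1-high cells all 7 were at least 1.5-fold lower, against 30.7% of all genes, with a median log2 ratio of -0.91. Ndufaf4 (chr4:24898083-24905001, plus strand) was the most abundant, with 55.5, 37.7 and 87.4 CPM in the epithelial cells and 45.8, 20.7 and 39.8 CPM in Fabp1-high cells. Its ratio there was 0.453 (0.393 to 0.524). In Lgr5-positive cells it had 59.1, 90.6 and 79.2 CPM, so the KO stood above the control, on 41 UMIs. The ATP synthase relatives Atp5s and Atp5sl were also lower in the KO epithelium, at 0.506 and 0.550 times the control.

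Complex III passes electrons from ubiquinol to cytochrome c. In Fabp1-high cells 2 of its 8 members were at least 1.5-fold lower in the KO, near the 30.7% of all genes: Uqcr11 with 1198, 710 and 1129 CPM and Uqcrb with 1012, 666 and 1062 CPM. Both core proteins were measured: Uqcrc1 stood at 782, 742 and 616 CPM there and Uqcrc2 at 468, 362 and 479 CPM. Uqcrc1 was thus lowest in the rescue, unlike most members. Across the epithelium Uqcrc1 had 438, 636 and 477 CPM, 1.45-fold higher in the KO than in the control (1.42 to 1.49), Uqcrc2 337, 339 and 466 CPM, and Uqcrfs1 330, 474 and 491 CPM.

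Complex IV had the smallest difference of the 4 in Fabp1-high cells, with 2 of 13 tested members at least 1.5-fold lower in the KO, against 30.7% of all genes. These were Cox7a1 and Cox6c, the latter with 1766, 1082 and 1942 CPM. The only member past 1.5-fold in the other direction was Cox6b2, on 2 and 35 UMIs. Cox5a (chr9:57521274-57532426, plus strand), a subunit on the matrix side of the enzyme, had the highest KO over control ratio in the epithelium among members of at least 50 CPM, at 1.90 (1.87 to 1.93). It stood at 1863, 2102 and 1730 CPM in Fabp1-high cells, 535, 1003 and 810 CPM in Lgr5-positive cells and 230, 945 and 791 CPM in Muc2-high cells, so the KO was highest in each of these classes. Cox6a1 was 1.40-fold higher in the KO epithelium, with 457, 638 and 696 CPM. Cox4i1 stood at 2465, 1920 and 2233 CPM in Fabp1-high cells.

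Complex V had 7 of 17 members at least 1.5-fold lower in Fabp1-high cells of the KO, against 30.7% of all genes. Atp5b had 1931, 1423 and 1667 CPM there, Atp5a1 1583, 1047 and 1399 CPM and Atp5c1, the gamma subunit gene, 1134, 660 and 1045 CPM. Atp5d, the delta subunit gene, differed from them. It stood at 729, 1312 and 971 CPM in the epithelium, 1.80-fold higher in the KO (1.77 to 1.83), and at 1306, 1483 and 1173 CPM in Fabp1-high cells. Atp5o, which encodes the stalk protein OSCP, was 1.48-fold higher in the KO epithelium and at 0.855 times the control in Fabp1-high cells. The gamma and delta subunits meet in the central stalk of the enzyme, and the ratio of KO over control of their genes lay on either side of 1 in the epithelium, with Atp5c1 at 703, 628 and 975 CPM.

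The c subunit of the ATP synthase is encoded by 3 genes whose mature proteins are known to be identical. Atp5g2 gave 34.1%, 33.1% and 27.3% of their UMIs in Lgr5-positive cells and 14.8%, 17.0% and 14.1% in Fabp1-high cells. Atp5g3 gave 26.6%, 26.4% and 29.2% and then 42.9%, 40.4% and 41.6%. The share of Atp5g2 was thus lower and that of Atp5g3 higher in Fabp1-high cells of each library. Atp5g2 was also the member of the 3 with a KO over control ratio under 1 in the epithelium, at 524, 450 and 678 CPM (0.858).

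Isoform genes that are known from other tissues were mostly rare. Cox4i2, the oxygen-regulated subunit 4 isoform, had 1, 3 and 1 UMIs in the epithelial cells, and Cox7b2, Cox8b and Cox8c had none in any library. A count of 0 allows up to 3 UMIs per library. Cox6a2, the muscle isoform of subunit 6a, had 16, 0 and 23 UMIs, and Ndufa4l2, a relative of Ndufa4 known for its induction in low oxygen, had 4, 22 and 2. Cox6b2 stood at 5.66, 1.61 and 4.24 CPM in the epithelium, with 10.51, 13.3 and 7.63 CPM in Lgr5-positive cells, where most of its control UMIs lay (74 of 105).

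Cox7a1 (chr7:30184144-30186078, plus strand) was the only such isoform at a level like that of the subunits. It stood at 211 CPM in the epithelium of the control, 72.2 for the KO and 164 for the rescue. In Fabp1-high cells it had 640, 96.8 and 417 CPM, so the KO stood 6.61-fold below the control (6.31 to 6.92) and the rescue 4.31-fold above the KO (4.11 to 4.51). The epithelial ratio of KO over control was 0.342 (0.328 to 0.357). In Mki67 cells it had 47.4, 22.7 and 55.2 CPM. In Muc2-high cells the order differed, with 15.1, 34.7 and 68.0 CPM. Immune barcodes had 6.56, 2.11 and 5.05 CPM, below the level in Lgr5-positive cells of the same library. The ratio in Fabp1-high cells stayed between 0.135 and 0.265 under every alternative tried. The epithelial ratio reversed to 3.00 with a mitochondrial limit of 10%, where 19.1 CPM in the control stood against 57.3 CPM in the KO.

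**Figure D5:**
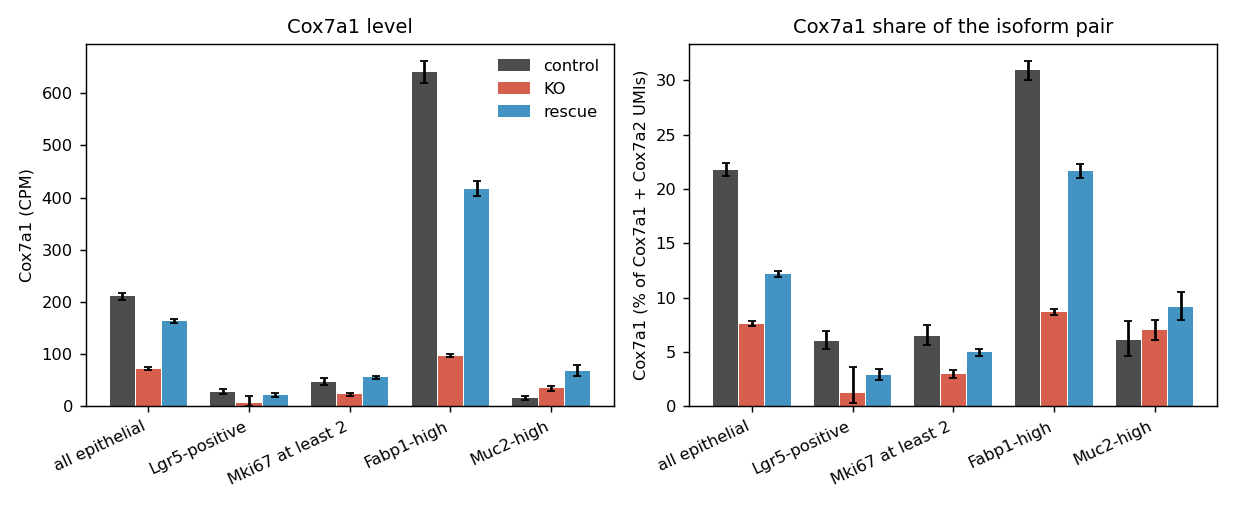
Cox7a1 level (left, CPM) and its share of the UMIs of Cox7a1 and Cox7a2 (right, percent) by class and library, as bars with exact 95% counting intervals. In Fabp1-high cells the control bar stands highest and the KO bar lowest in both panels.

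Its ubiquitous paralog Cox7a2 stood at 758, 879 and 1178 CPM in the epithelium and at 1432, 1017 and 1511 CPM in Fabp1-high cells. Cox7a1 therefore gave 30.9% of the UMIs of the pair in Fabp1-high cells of the control, 8.69% for the KO and 21.6% for the rescue. In Lgr5-positive cells it gave 6.03%, 1.26% and 2.88%. The Cox7a1 window shown above held none of the 3 motifs searched, nor did that of Cox7a2. Among members with a window, those with the NRF1 letters had a median log2 ratio of Fabp1-high over Lgr5-positive cells of 0.86 (17 members) and those without 0.69 (51 members), each taken as the median over the 3 libraries. For the YY1 letters the medians were 0.72 with and 0.69 without, and for the ETS letters 0.69 with and 0.71 without. A link between motif and ratio was not tested.

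The third comparison sets the rescue against the KO. Across the epithelium the summed level was 1.256-fold higher in the rescue (1.254 to 1.258), with 27 of 84 members at least 1.5-fold higher, against 38.6% of all genes, and 1 lower (Ndufa4l2), against 18.3%. Centred on the median log2 ratio of all genes, 0.26, 11 members were higher and 4 lower. By complex the ratio was 1.35 for I, 1.28 for III, 1.13 for IV and 1.28 for V. With a mitochondrial limit of 10% it was 0.888. In Fabp1-high cells it was 1.307 (1.303 to 1.312), with 1.38 for I, 1.31 for III, 1.23 for IV and 1.32 for V. There 24 of 82 members were higher, against 20.6%, and 1 was lower (Cox6b2), against 21.6%, with a median log2 ratio of 0.43 beside 0.01 for all genes. In Mki67 cells the ratio was 1.19, with 4 of 82 members higher, against 14.5%, and 0 lower, against 14.3%. In Muc2-high cells it was 1.43, with 44 of 81 higher, against 34.1%, and 0 lower, against 20.8%. In Lgr5-positive cells it was 1.02 with an interval that held 1 (0.999 to 1.03). With the limit of 10% that ratio was 0.607 (13 KO and 18 rescue cells), and it was 1.204 both after centring and without the Lyz1-high cells. Of 82 members there 1 was higher (Cox7a1), against 15.4%, and 4 were lower, against 28.5%. In Lgr5-positive cells of exactly 1 class the summed level was 31863 CPM in 7 KO cells and 24005 CPM in 22 rescue cells.

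All 7 assembly factors were at least 1.5-fold higher in the rescue epithelium than in that of the KO, against 38.6% of all genes, with a median log2 ratio of 0.92. Ndufaf4 had the highest ratio among members of at least 50 CPM, at 2.32 (2.20 to 2.44), and Ndufaf2, with 27.5 CPM for the KO and 51.3 for the rescue, a ratio of 1.87. Cox7a1 stood at 2.27, Ndufc2 at 1.92 and Ndufa4 at 1.89. The lowest ratios were those of Atp5d at 0.740, Uqcrc1 at 0.751, Cox5a at 0.774 and Ndufa11 at 0.846, followed by Cox6b1 at 0.974 with 1045 CPM for the KO and 1018 for the rescue. This comparison and the one of the KO with the control share the KO library, so neither adds to the other. In Fabp1-high cells Cox5a was at 0.823, Atp5d at 0.791, Uqcrc1 at 0.830 and Ndufa11 at 0.918.

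The fourth comparison sets the rescue against the control, and it shares a library with each of the others. In Fabp1-high cells the ratio of summed levels was 0.986 (0.981 to 0.990), and it was 1.08 after centring and 1.68 with the mitochondrial limit of 10%, which left 11 control cells. Of 81 members 0 were at least 1.5-fold higher, against 5.12% of all genes, and 3 were lower (Ndufaf5, Cox7a1 and Atp5s), against 16.8%. Across the epithelium the rescue stood 1.439-fold higher (1.435 to 1.443), with 27 of 83 members higher, against 10.6%, and 0 lower, against 19.3%. Without the Lyz1-high cells this ratio was 1.22 with 0 members higher and 3 lower, and without mitochondrial and Paneth-type UMIs in the total 7 were higher and 1 lower. With a mitochondrial limit of 10% it was 2.11 with 75 members higher. Shares of all genes were not computed under these settings. In Lgr5-positive cells the ratio was 1.41, with 22 of 82 members higher, against 11.8%, and 0 lower, against 13.4%. The direction reversed in Lgr5-positive cells of exactly 1 class, with 24005 CPM in the rescue and 29334 CPM in the control. In Mki67 cells the ratio was 1.38, with 19 of 82 higher, against 11.5%, and 1 lower, against 12.1%. In Muc2-high cells it was 2.78, with 81 of 81 members higher, against 60.1%, and 0 lower, against 5.06%. Median log2 ratios of members and of all genes were 0.46 and 0.04 in Lgr5-positive cells and 0.43 and 0.04 in Mki67 cells. In Muc2-high cells they were 1.45 and 0.69.

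In the epithelium the highest members of this comparison were Ndufb6 at 1.77, Atp5g1 at 1.71, Atp5k at 1.68, Ndufa5 at 1.68 and Uqcr10 at 1.66 times the control. The lowest were Cox7a1 at 0.776 (0.746 to 0.807), Uqcrc1 at 1.09, Ndufa7 and Ndufa1 at 1.13 and Cox7a2l at 1.14. Cox7a1 was thus the only one of these 10 below the control. The Paneth cell and enterocyte RNA of the Muc2-high gate differed between the libraries, and its part in the member levels was not tested. Cells with 5 to 50 Muc2 UMIs per 10000 had 226564 CPM of Defa24 for the control, 268 for the KO and 59719 for the rescue. They had 351, 6852 and 1130 CPM of Fabp1 and a summed member level of 10367, 35353 and 35751 CPM. Among cells with at least 50 Muc2 UMIs per 10000 (30, 164 and 26 cells) the summed member level was 16780, 16080 and 19421 CPM. The KO over control ratio in them was 0.958, against 1.95 for the whole class, the rescue over control ratio was 1.16, against 2.78, and the rescue over KO ratio was 1.21, against 1.43. Without the Lyz1-high cells the rescue over control ratio of the class was 1.69 and the rescue over KO ratio 1.61. The Muc2 limit was chosen after the data were seen.

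The rest of the pathway was read from lists of genes that work beside the members. In Fabp1-high cells the 4 complex II genes summed to 1776, 1054 and 1691 CPM, and 3 of 4 had KO levels at least 1.5-fold below those of the control. Sdha, the flavoprotein, stood at 372, 196 and 293 CPM, Sdhb at 682, 413 and 640 CPM and Sdhd at 478, 259 and 538 CPM. The 13 protein genes of mitochondrial DNA summed to 150764, 102957 and 145893 CPM, and 8 of 13 were lower in the KO. These genes also entered the limit on mitochondrial UMIs. Of 28 assembly genes outside the members 17 were lower in the KO and 0 higher, and of 77 mitochondrial ribosomal protein genes 23 were lower and 3 higher. Of 13 genes of the citric acid cycle 8 were lower and 0 higher. Cycs, which encodes the electron carrier cytochrome c, stood at 926, 1096 and 1124 CPM and did not pass 1.5-fold. Against the background of 30.7% lower genes, the mitochondrial ribosomal genes were thus near the share of all genes in the lower direction only. Of all genes 19.0% were higher in the KO, so the 3 of 77 higher mitochondrial ribosomal genes were a smaller share than that.

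Regulators of mitochondrial gene expression differed in both directions in Fabp1-high cells, with 1 of 15 tested higher in the KO, against 19.0% of all genes, and 7 lower, against 30.7%. Ppargc1a, the coactivator PGC-1 alpha, stood at 67.1, 16.5 and 67.2 CPM. Esrra, the nuclear receptor ERR alpha, stood at 149, 102 and 148 CPM, and Hnf4g, a nuclear receptor of enterocytes, at 135, 78.0 and 107 CPM. Hnf4a, its close relative, stood at 112, 288 and 119 CPM. Ldha, which makes lactate from pyruvate, stood at 1687, 2442 and 1386 CPM, and Pdk4, an inhibitor of pyruvate dehydrogenase, at 81.1, 10.9 and 18.7 CPM. Across the whole epithelium the lists were mixed. There 0 of 4 complex II genes passed 1.5-fold in either direction, 2 of 13 genes of mitochondrial DNA were lower, and 3 of 13 citric acid cycle genes were higher and 3 lower, beside 18.2% higher and 39.3% lower among all genes. Cycs stood at 454, 914 and 798 CPM, Mdh2 of the citric acid cycle at 1028, 2274 and 1110 CPM and Cs, citrate synthase, at 150, 374 and 200 CPM.

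The rescue was also set against the KO for these lists, with the same KO library as above. In Fabp1-high cells 2 of 4 complex II genes, 7 of 13 genes of mitochondrial DNA, 11 of 28 outside assembly genes and 4 of 13 citric acid cycle genes were at least 1.5-fold higher in the rescue, against 20.6% of all genes. Between the rescue and the control 0 of 4, 0 of 13 and 0 of 27 tested genes of the first 3 lists were higher, against 5.12% of all genes, and 0, 3 and 2 were lower, against 16.8%. Early response genes that dissociation is known to induce (Fos, Jun, Egr1, Atf3 and Hspa1a) summed to 2863, 864 and 2025 CPM in the Fabp1-high cells and moved with the member level across the libraries. Their part in the result was not tested.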

How the data were processed

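Each deposited matrix gives the authors' raw UMI count for every gene in every barcode, as written by Cell Ranger. Cell Ranger is given as 1.3.0 per the submitters' processing notes, and per the file headers as 3.0.2 for the control and KO and as 3.1.0 for the rescue. With a genome build not given in the sources used here, gene coordinates are those of GENCODE vM21 (GRCm38), where 88 of 88 member identifiers matched, and promoters those of RefSeq (GRCm38.p6), where 70 of 88 matched by symbol. Coordinates count from 1.

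Groups followed the labels, with 1 library each. Barcodes needed 500 genes, 1000 UMIs and no more than 20% of UMIs from mitochondrial DNA. Of all barcodes, 48.8%, 35.5% and 28.7% (control, KO, rescue) passed the first limits but not the last. Epithelial cells, their classes and the limits of each class were set by single genes as the report gives them. UMIs were summed over the cells of a class and given as CPM, over all UMIs. CPM had exact Poisson intervals and ratios conditional exact binomial intervals, both at 95% and for counting error only. UMIs are deduplicated molecules, and depth was 18549801, 61355024 and 39846684 UMIs in the epithelial cells. A gene was tested for a difference of at least 1.5-fold where 1 of the 2 groups had at least 20 UMIs. Log2 ratios used a pseudocount of 1 CPM, which understates differences of low genes. With 1 library per genotype no p-value was computed, since cells are not replicates.

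The members and lists were chosen with earlier results of these data known. Named members were the 10 highest and 10 lowest for the KO over the control in the epithelium, the 5 highest and 5 lowest for the other comparisons and for Fabp1-high over Lgr5-positive cells, each with at least 50 CPM in 1 of the libraries between genotypes, the 3 most abundant of each complex, core subunits and the isoforms. The values of 1 gene are not reported here. Other genes named were picked as examples of a list or role after their values were seen. Doublets were kept, and their removal at 0.8% per 1000 cells by a score against simulated doublets, an alternative, took out 20, 33 and 29 cells (1.25%, 1.62% and 1.53%). The step for ratios was tested on simulated data for the KO over the control with 11785 genes, where true folds of 4, 2, 1, 0.5 and 0.25 gave medians of 3.99, 1.97, 1.00, 0.498 and 0.257. These medians were corrected for the known change in composition of the simulated library, and the ratios of the real libraries were not. The simulated counts held Poisson error alone, so shifts from a difference in composition between real libraries were not tested. Alternatives varied the cell limits, the total behind CPM, the pooling of cells, the class limits and the filter on low counts. The removal of Lyz1-high cells, the limit of 50 Muc2 UMIs, the total without Paneth-type genes and the bins of Fabp1-high cells by Fabp1 level and mitochondrial share were chosen after seeing the data. Python 3.11.15 was used with NumPy 2.4.6, SciPy 1.17.1, pandas 2.3.3, scikit-learn 1.9.0 and matplotlib 3.10.9.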

Additional observations from a re-analysis of the deposited data

Results flagged for a closer look

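The ratio of summed member CPM between the KO and the control lay on different sides of 1 in different classes of cells: it was 1.39 in Lgr5-positive, 1.16 in Mki67 and 1.95 in Muc2-high cells, and 0.754 in Fabp1-high cells. For the rescue over the control the ratio was 1.41 in Lgr5-positive, 1.38 in Mki67 and 2.78 in Muc2-high cells. In Fabp1-high cells it was 0.986, which is close to 1. Without the Lyz1-high cells the KO over control ratios were 1.05, 0.990 and 1.05 in the Lgr5-positive, Mki67 and Muc2-high cells and 0.739 in Fabp1-high cells. At 50 or more Muc2 UMIs per 10000 the KO over control ratio was 0.958 and the rescue over control ratio 1.16. In cells of exactly 1 class the Lgr5-positive level was 29334, 31863 and 24005 CPM (control, KO, rescue) and the Mki67 level 46651, 41346 and 52211 CPM. The rescue then stood below the control in Lgr5-positive cells, and the KO below the control in Mki67 cells. The other directions did not change. With 1 library per genotype the difference between classes was not tested.

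Epithelial barcodes with more than 20% of UMIs from mitochondrial DNA entered no comparison. In them the members summed to 14256 CPM in the control (2170 barcodes), 21380 CPM in the KO (1447) and 24957 CPM in the rescue (697), so the pooled KO and rescue stood above the control there. With mitochondrial UMIs left out of the total the levels were 32334, 35842 and 49455 CPM. Among them the Fabp1-high barcodes (46, 138 and 54) had 47655, 31778 and 46387 CPM, lowest in the KO.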

How the results depend on the processing

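No paired analysis was possible because each genotype had 1 library and no replicate numbers were shared. Leaving out a replicate was not possible for the same reason. In the following, the ratio, the numbers of members at least 1.5-fold higher and lower, and the median log2 ratio refer to all epithelial cells, and the causes of the shifts were not tested. Where a value is not listed it stayed within its counting interval or within 1.5 times the count. Counts under an alternative have no share of all genes beside them, since that share was not computed.

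For the KO over the control (ratio 1.145, 5 higher, 7 lower, median 0.09), a mitochondrial limit of 10% gave 2.376, 68, 1 and 1.10, and reversed Cox7a1 to 3.000. Centring on the median of all genes gave 1.388, 22, 3 and 0.36. Leaving out Lyz1-high cells gave 0.9466, 1, 11 and -0.19. A total without mitochondrial and Paneth-type UMIs gave a ratio of 1.015, 3 higher and a median of -0.09. Equal weights on the 4 classes gave a ratio of 1.088, 3 higher and 2 lower. A mean over cells gave a ratio of 1.069 and a median of -0.06. The ratio was 1.119 with a limit of 30%, 1.128 without mitochondrial UMIs in the total, 1.069 also without ribosomal protein UMIs, 1.069 in cells thinned to 2000 UMIs and 1.149 without doublets. Without assembly factors 4 members were lower. In Muc2-high cells the ratio of 1.952 reversed to 0.9583 at 50 or more Muc2 UMIs per 10000.

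For the rescue over the KO (1.256, 27 higher, 1 lower, median 0.45), the limit of 10% gave 0.8884, 7, 7 and -0.06, and centring gave 1.049, 11, 4 and 0.19. Leaving mitochondrial and ribosomal protein UMIs out of the total gave a ratio of 1.420, 48 higher and a median of 0.62. A mean over cells gave 1.387, 41 higher and 0.57. Thinning gave 1.384, 0 lower and 0.56. Equal weights gave 1.220, 6 higher and 0.30. The ratio was 1.275 with the limit of 30%, 1.253 with at least 5000 UMIs, 1.292 without mitochondrial UMIs, 1.253 without doublets, 1.254 without assembly factors, 1.292 without Lyz1-high cells and 1.314 with the total without Paneth-type UMIs.

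For the rescue over the control (1.439, 27 higher, 0 lower, median 0.53), the limit of 10% gave 2.111, 75 higher and a median of 1.04. Leaving out Lyz1-high cells gave 1.223, 0 higher, 3 lower and 0.30. The total without Paneth-type UMIs gave 1.335, 7 higher, 1 lower and 0.42. Equal weights gave 1.327, 4 higher, 1 lower and 0.39. The total without mitochondrial and ribosomal protein UMIs gave 1.518, 42 higher and 0.61. Thinning gave 1.479 with 42 higher, and a mean over cells 1.483 with 1 lower. At least 5000 UMIs gave 1.435 with 1 lower, and at least 5 Epcam UMIs 1.434 with 1 lower. The ratio was 1.427 with the limit of 30%, 1.457 without mitochondrial UMIs and 1.433 after centring.

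The ratio of Fabp1-high over Lgr5-positive cells (control 2.399, KO 1.299, rescue 1.672) stayed above 1 under every alternative run. Values for control, KO and rescue were 2.551, 1.323 and 1.763 without mitochondrial UMIs, 2.118, 1.377 and 1.553 as a mean over cells, and 2.444, 1.326 and 1.645 with doubled class limits. They were 2.115, 1.443 and 2.515 in cells of exactly 1 class, so the rescue then stood above the control. They were 2.139, 1.482 and 1.715 without mitochondrial UMIs and the 10 most abundant genes of each class in the total, 2.311, 1.385 and 1.581 with at least 2 Lgr5 UMIs, and 2.205, 1.323 and 1.605 without Paneth-type UMIs. Control and rescue were 1.979 and 2.553 with the limit of 10%, 2.423 and 1.749 without doublets, and 1.851 and 1.411 without Lyz1-high cells. KO and rescue were 1.270 and 1.697 with the class limits lowered by a factor of 2. In Fabp1-high cells the number of members with KO levels at least 1.5-fold below the control was 36, 7 under the limit of 10%, 21 after centring and 29 to 41 otherwise. Depth limits the members with few UMIs, such as Cox6b2 and Atp5s, and the 17 Lgr5-positive cells of the KO.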

Other observations

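RNA of the globin genes Hbb-bs and Hba-a1, markers of red blood cells, summed to 25.1 CPM for the epithelial cells of the control, 83.9 for the KO and 295 for the rescue, and to 25.8, 429 and 1489 CPM in the Muc2-high cells. Reg3b and Reg3g, antimicrobial lectin genes of the intestine, stood at 1551, 2311 and 39563 CPM and at 632, 508 and 15227 CPM in the Fabp1-high cells of the control, KO and rescue. Pigr, the receptor that carries immunoglobulin A across the epithelium, stood at 4415, 506 and 4025 CPM in the same cells. Slc25a5, an ADP and ATP carrier of the inner mitochondrial membrane, stood at 2259, 1706 and 2231 CPM. Lct, the lactase gene, stood at 309, 0.504 and 195 CPM.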
